A study of Mus musculus with 20 samples.

Results

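Lep, Mest, Sfrp5, Npr3 and Nnat are 5 genes known to follow the enlargement of fat cells, and they were taken by gene name from the count tables of mouse white adipose tissue, where they are 5 of 56805 annotated genes. All 5 had enough reads to be tested. The tissue came from 20 mice in 4 groups of 5, fed for 10 weeks on chow or on a high-fat diet, with either water or Tibetan tea, a post-fermented dark tea extracted with water, to drink. The groups are called chow water, chow tea, high-fat water and high-fat tea, and every mouse had free access to food and drink. Strain, genotype, sex and age of the mice, the adipose depot, the fat content of the diet and the tea dose were not given in the sources used here. Each library is a different mouse according to the design text, so the spread between libraries contains mouse, dissection and library preparation.

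White fat stores triglyceride in adipocytes, and when energy intake stays high the tissue grows as these cells enlarge and as new ones form. Lep encodes leptin, a hormone secreted by adipocytes that reports the size of the fat store to the hypothalamus. Mest encodes an endoplasmic reticulum protein of the hydrolase fold family and is an imprinted gene, transcribed from the copy inherited from the father. Sfrp5 encodes a secreted frizzled-related protein that binds Wnt ligands outside the cell, Npr3 encodes the clearance receptor that removes natriuretic peptides, and Nnat, also imprinted and expressed from the paternal copy, encodes a small membrane proteolipid of the endoplasmic reticulum.

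The starts of the 5 genes are shown here because the deviations of the genes from their group means varied together over the 20 mice. Each window runs 5′ to 3′ on the gene's own strand over 150 bases, 120 before the transcription start and 30 from it, and comes from RefSeq on GRCm38, whose coordinates differ from those of the count tables. All 5 genes matched, and Mest has 2 separate starts. Capitals mark the letters searched on both strands, which were chosen after the sequences were seen.
Lep, chr6:29060101-29060250, plus strand: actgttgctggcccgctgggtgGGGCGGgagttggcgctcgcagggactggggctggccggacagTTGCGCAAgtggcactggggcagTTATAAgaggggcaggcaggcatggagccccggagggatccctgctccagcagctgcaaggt
Mest, upstream start, chr6:30733386-30733535, plus strand: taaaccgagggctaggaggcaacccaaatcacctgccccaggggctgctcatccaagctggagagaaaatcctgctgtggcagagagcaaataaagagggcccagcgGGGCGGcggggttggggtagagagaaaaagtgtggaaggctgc
Mest, downstream start, chr6:30737930-30738079, plus strand: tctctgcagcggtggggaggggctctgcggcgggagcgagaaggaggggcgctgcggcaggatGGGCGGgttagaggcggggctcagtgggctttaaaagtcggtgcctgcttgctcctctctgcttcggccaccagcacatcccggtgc
Sfrp5, chr19:42202223-42202372, minus strand: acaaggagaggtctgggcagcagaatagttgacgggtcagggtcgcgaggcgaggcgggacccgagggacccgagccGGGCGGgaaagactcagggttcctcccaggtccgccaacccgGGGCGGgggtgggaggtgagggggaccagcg
Npr3, chr15:11907342-11907491, minus strand: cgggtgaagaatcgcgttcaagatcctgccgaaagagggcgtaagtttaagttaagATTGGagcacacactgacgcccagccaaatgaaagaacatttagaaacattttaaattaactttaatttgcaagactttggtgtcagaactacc
Nnat, chr2:157559958-157560107, plus strand: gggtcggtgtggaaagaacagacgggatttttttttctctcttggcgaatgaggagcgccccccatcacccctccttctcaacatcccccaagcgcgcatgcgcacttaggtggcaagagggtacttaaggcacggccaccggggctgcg

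The motifs searched were TTGCGCAA, the palindromic core bound by C/EBP factors, TATAA for a TATA box, GGGCGG for a GC box, CCAAT for a CCAAT box, CACGTG for an E-box and AGGTCA for a nuclear receptor site. The Lep window held TTGCGCAA, beginning 55 bases before the start, which 32 of 32851 promoter windows of the same length held (0.1%). It also held TATAA, read on both strands in overlapping positions and beginning 32 and 31 bases before the start, a word held by 13.43% of windows. GGGCGG, held by 29.06% of windows, was found in the Lep window, in both Mest windows and at 2 positions of the Sfrp5 window. The Npr3 window held CCAAT on the opposite strand, written ATTGG in the window, as did 23.97% of windows on either strand, and the Nnat window held none of the 6 motifs. CACGTG (4.47% of windows) and AGGTCA (8.33%) were in none of the 6 windows. No motif was shared by all 5 genes. GC content was 68% in the Lep window, 58.7% and 68% in the Mest windows, 70.7% in the Sfrp5 window, 40.7% in the Npr3 window and 59.3% in the Nnat window, against a median of 54.7% over all windows. A match in these letters is a description of the sequence only.

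On GRCm39, the build of the count tables, Lep lies on chromosome 6 from 29060219 to 29073876 on the plus strand, with 3354 exonic bases. Mest lies on the same chromosome from 30723546 to 30748464, plus strand, with 3945 exonic bases, of which 912 (23.12%) are shared with Copg2 on the opposite strand. Sfrp5 lies on chromosome 19 from 42186410 to 42190691, minus strand (1900 exonic bases). Npr3 lies on chromosome 15 from 11839982 to 11907373, minus strand (9389 exonic bases, 3.42% of them shared with Gm5144 on the opposite strand). Nnat lies on chromosome 2 from 157401998 to 157404442, plus strand (1829 exonic bases, 4.76% of them shared with Gm56190 on the opposite strand). It lies inside Blcap, a gene of the opposite strand with which it shares 0 exonic bases. Reads were counted without regard to strand, so strand does not separate reads from the bases shared by Mest and Copg2. Gm56190, from 157404281 to 157404367 within Nnat, had 0 reads in every library. Reads on shared bases may therefore have been left out of the counts of both genes, which was not tested.

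The libraries held 53047057 to 93314761 reads in genes. The mature adipocyte list, 12 genes such as the adiponectin gene Adipoq and the lipid droplet gene Plin1, summed to 13170 to 55730 CPM, read counts scaled to library size, so every library held adipocyte transcripts. Its lowest sums were 16240 CPM, in replicate 1 of chow water, and 13170 CPM, in replicate 4 of high-fat tea. Transcripts of other organs exceeded 1000 CPM in at least 1 of the 8 lists for such organs in 9 libraries. The largest sums were 653500 CPM of pancreas acinus genes in chow water replicate 1, 24990 CPM of kidney genes in high-fat tea replicate 4 and 34080 CPM of epididymis, testis and seminal vesicle genes in high-fat water replicate 4, and skeletal muscle genes reached 35070 CPM in high-fat tea replicate 1 and 31000 CPM in high-fat water replicate 5. Results below are therefore also given without those first 3 libraries and without all 9. The fit without the first 3 keeps the libraries with 35070 and 31000 CPM of skeletal muscle genes. The fit without the 9 holds 3 chow water, 4 chow tea, 2 high-fat water and 2 high-fat tea libraries, so a call lost there says little, and its fold changes are the values to read. In bulk tissue, fewer fat cells and less RNA per fat cell cannot be told apart.

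Levels in CPM, on the same TMM-scaled library sizes, are given for each gene in replicates 1 to 5 of each group. Lep stood at 5.38, 50.1, 33.4, 35.4 and 170.3 CPM in chow water. It stood at 3080, 1660, 951, 1062 and 1286 CPM in high-fat water. The lowest high-fat water mouse was above the highest chow water mouse, and the chow water mice themselves spread over a 31.7-fold range. Lep stood at 1.52, 17.7, 9.09, 6.56 and 0.807 CPM in chow tea. It stood at 165.3, 66.5, 5.06, 97.7 and 943 CPM in high-fat tea. No tea-drinking mouse on the high-fat diet reached the lowest water-drinking one, although replicate 5 came close to it. The order of the group medians was chow tea (6.56 CPM), chow water (35.4), high-fat tea (97.7) and high-fat water (1286).

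Mest stood at 8.27, 15.4, 29.9, 9.21 and 81.5 CPM in chow water. In high-fat water it stood at 803, 466, 232, 340 and 360 CPM, again with no overlap. Mest thus had the same shape as Lep, with chow water replicate 5 highest in its group. It stood at 5.27, 18.7, 36, 7.22 and 11.6 CPM in chow tea and at 165.2, 34.4, 8.65, 39.1 and 441 CPM in high-fat tea. In high-fat tea, replicate 5 lay inside the range of high-fat water and replicates 2, 3 and 4 inside that of chow water.

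Sfrp5 stood at 13.6, 26, 14.6, 15.9 and 59.3 CPM in chow water. It stood at 617, 435, 288, 252 and 290.3 CPM in high-fat water. The chow tea mice stood at 26.1, 25.1, 29.8, 24.9 and 50.7 CPM, within the range of chow water. The high-fat tea mice stood at 149.4, 29.4, 26.4, 39.4 and 311 CPM, and only replicate 5 of these reached the high-fat water range.

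Npr3 stood at 26.1, 87.5, 125.1, 96.3 and 281 CPM in chow water. It stood at 1393, 1091, 743, 616 and 1058 CPM in high-fat water. The clearance receptor was therefore higher in each high-fat water mouse than in any chow water mouse. It stood at 42.4, 69.3, 70.3, 66.8 and 85.9 CPM in chow tea, the narrowest group for this gene in CPM. It stood at 267, 111.2, 72.5, 110.2 and 763 CPM in high-fat tea, where replicate 5 again lay inside the high-fat water range.

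Nnat differed from the other 4 genes in that it was abundant on chow. It stood at 80.2, 347, 453, 281 and 753 CPM in chow water and at 662, 1005, 958, 563 and 1042 CPM in high-fat water, and these groups overlap through chow water replicate 5. It stood at 57.4, 193.4, 193.1, 116.8 and 193.2 CPM in chow tea. It stood at 474, 151, 97, 92.2 and 453 CPM in high-fat tea, all below the lowest high-fat water mouse. Its group medians ran from high-fat tea (151 CPM) through chow tea (193.1) and chow water (347) to high-fat water (958). By means its lowest group was chow tea, at 150.8 CPM against 253 in high-fat tea.

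**Figure D1:**
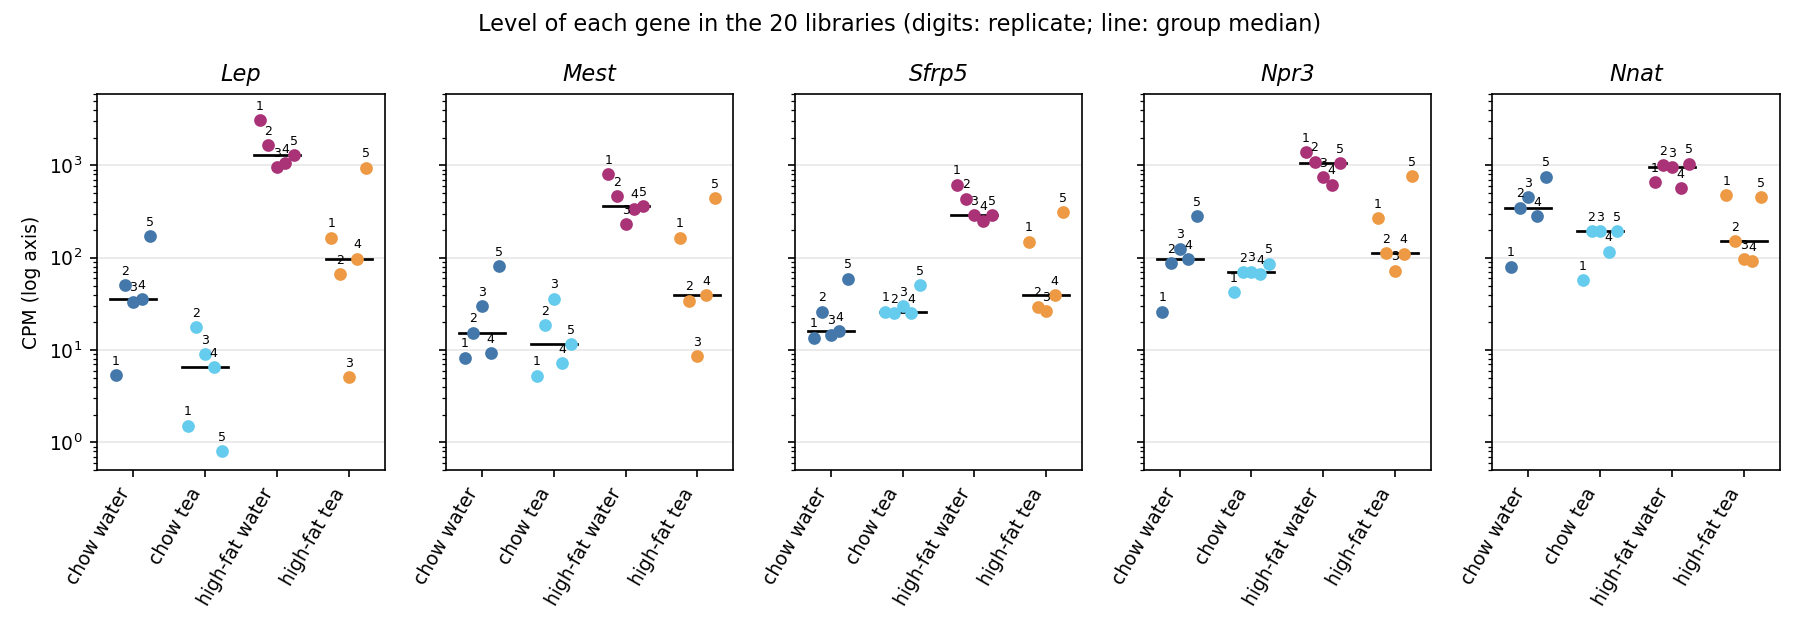
Level of each gene in CPM (vertical log axis) in the 20 libraries, by group on the horizontal axis. Points are libraries with their replicate number, and black lines are group medians. The high-fat water libraries sit above every chow water library for Lep, Mest, Sfrp5 and Npr3 but not for Nnat, and high-fat tea replicate 5 stands at 943 CPM of Lep and 763 CPM of Npr3.

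Levels per kilobase were divided by all annotated exonic bases of a gene, which can exceed the transcript expressed, so genes are compared only roughly. On this scale Nnat had the highest mean level of the 5 in chow water, at 209 ± 135.4 CPM per kilobase (SD, n = 5). Lep stood at 17.6 ± 19.2, Sfrp5 at 13.6 ± 10.2, Npr3 at 13.1 ± 10.1 and Mest at 7.32 ± 7.78. In high-fat water Lep reached 479 ± 258 CPM per kilobase and Nnat 463 ± 119, a difference smaller than either SD. Sfrp5 then stood at 198 ± 79.9, Mest at 112 ± 55.5 and Npr3 at 104.4 ± 32.7 CPM per kilobase. The pair of Mest and Npr3 also lay within 1 SD of each other in that group.

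In water-drinking mice the transcripts of the adipocyte hormone, the hydrolase fold protein, the Wnt-binding protein and the natriuretic peptide clearance receptor rose with high-fat feeding. By the edgeR quasi-likelihood F test with Benjamini-Hochberg adjustment over 21306 genes, 4 of the 5 genes were called higher at an adjusted p below 0.05, where 8.06% of all tested genes were called higher. The 5 genes were chosen with earlier results of these data known, so this count is no test of them as a set. Lep rose 27.3-fold, from a mean of 58.9 ± 64.3 to 1608 ± 867 CPM (SD, n = 5). Its log2 fold change was 4.77 (SE 1.18, edgeR adjusted p = 0.0128), and without chow water replicate 5 it was 5.69.

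Mest rose 15.2-fold, from 28.9 ± 30.7 to 440 ± 219 CPM (log2 3.93, SE 0.94, edgeR adjusted p = 0.0108). Without chow water replicate 5 its log2 fold change was 4.81. Sfrp5 rose 14.5-fold, from 25.9 ± 19.3 to 376 ± 152 CPM, and had the lowest adjusted p of the 5 genes (log2 3.86, SE 0.67, edgeR adjusted p = 0.00158). Npr3 rose 7.96-fold, from 123.1 ± 95.1 to 980.2 ± 307 CPM (log2 2.99, SE 0.62, edgeR adjusted p = 0.00499).

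Nnat did not pass the threshold, with 383 ± 248 CPM in chow water and 846 ± 218 CPM in high-fat water (log2 1.14, SE 0.54, edgeR adjusted p = 0.158). The 4 genes that were called also had groups that do not overlap, which held for 7.34% of all tested genes in the upward direction. For each of these 4 the two-sided exact permutation test on log2 CPM gave p = 0.00794, the smallest that 5 mice against 5 allow, and for Nnat it gave 0.0238, none of them adjusted. The median log2 fold change was 3.86 over the 5 genes and 0 over all tested genes.

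Without the 3 libraries with the largest sums of pancreas, kidney and seminal vesicle genes, the same 4 genes were called (log2 4.59 for Lep, 3.77 for Mest, 3.81 for Sfrp5 and 2.86 for Npr3). Without all 9 libraries with other-organ transcripts, Lep, Sfrp5 and Npr3 were called at 4.87, 4.11 and 2.87, and Mest stood at 3.95 with an edgeR adjusted p of 0.0527, from 3 mice against 2. With the level of the adipocyte list as a covariate all 5 were called, Nnat at 1.27 (edgeR adjusted p = 0.0303).

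Markers of other cells in fat moved in directions that differed from list to list. The macrophage list summed to 685 to 2227 CPM in chow water and 1417 to 3330 CPM in high-fat water, with 3 of 13 genes higher and 2 lower. Over all tested genes 8.06% were called higher and 7.11% lower. In the progenitor and fibroblast list 1 of 12 genes was higher, and at an unadjusted edgeR p below 0.05 6 were higher and 0 lower. Its median sum was 2786 CPM in chow water and 3642 in high-fat water. At that unadjusted level 5 macrophage genes were higher and 3 lower. In the endothelial list 0 of 9 were higher, and in the mesothelial list 3 of 8 were lower, with sums of 93.5 to 1128 CPM in chow water and 37.7 to 153.1 in high-fat water. Their part in the result was not tested.

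**Figure D2:**
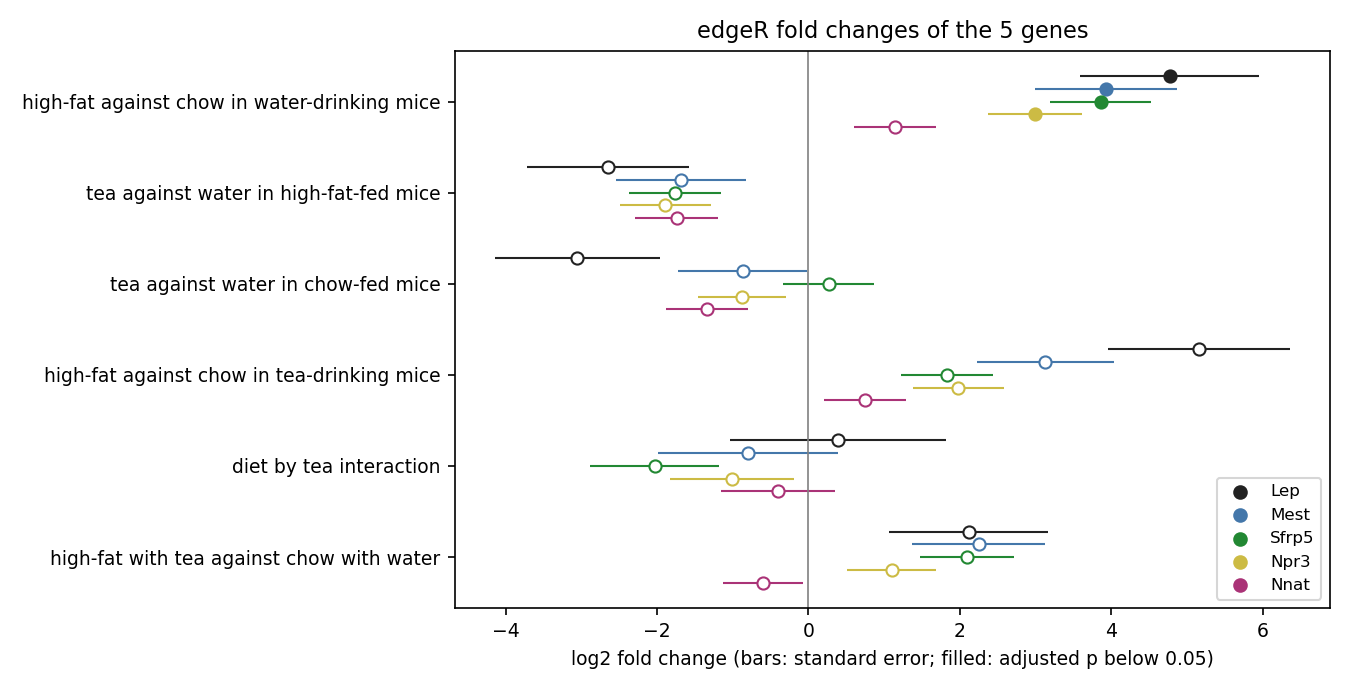
Log2 fold change of the 5 genes in the 6 comparisons (horizontal axis; bars are standard errors), with filled points where the edgeR adjusted p is below 0.05. Only the points of Lep, Mest, Sfrp5 and Npr3 in high-fat against chow feeding of water-drinking mice are filled, and all 5 genes lie below 0 for tea against water on the high-fat diet.

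Among high-fat-fed mice, all 5 genes had lower means with tea than with water, and 0 of 5 passed the threshold, where 4.36% of all tested genes were called in either direction and 2.3% lower. At an unadjusted p below 0.05 edgeR put 4 of them lower, all but Mest, and DESeq2 with adjustment called 3. Lep stood at 255.4 ± 389 CPM with tea against 1608 ± 867 with water (log2 −2.65, SE 1.07, edgeR adjusted p = 0.144). Nnat stood at 253 ± 193 against 846 ± 218 CPM (log2 −1.74, SE 0.55, edgeR adjusted p = 0.0733).

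The 2 genes Lep and Nnat had groups that do not overlap, with every tea-drinking mouse lower, as 3.18% of all tested genes did in that direction. Their unadjusted two-sided exact permutation p was 0.00794, the smallest this design allows. Npr3 stood at 265 ± 288 against 980.2 ± 307 CPM (log2 −1.89, SE 0.60, edgeR adjusted p = 0.0745), and its groups overlap through replicate 5 of high-fat tea. Sfrp5, at 111.1 ± 123 against 376 ± 152 CPM, had a log2 difference of −1.76 (SE 0.61, edgeR adjusted p = 0.0972). Mest, at 137.7 ± 180.2 against 440 ± 219 CPM, had −1.68 (SE 0.86, edgeR adjusted p = 0.248).

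Whether these genes were called changed with a single library and with the method, since DESeq2 called 3 with all 20 libraries kept. Without high-fat tea replicate 5, all 5 genes were called lower by edgeR, at −4.27 for Lep (adjusted p = 0.0245), −2.83 for Mest (0.0487), −2.62 for Sfrp5 (0.0109), −2.81 for Npr3 (0.00566) and −2.06 for Nnat (0.0374). Calls over all tested genes also rose without it, to 9.26% in either direction. That library held 50820 CPM of the adipocyte list, the highest sum of its group, and 4986 CPM of the caveolae list, also the highest. No other-organ list exceeded 1000 CPM in it. Its macrophage list (2111 CPM) and its progenitor and fibroblast list (3397 CPM) were highest in the group too. By mean log2 CPM of the adipocyte list, replicate 3 stood higher (11.02, against 10.95 in replicate 5), with the lowest Lep, Mest, Sfrp5 and Npr3 of the group. Replicate 4 stood lowest (9.11) and ranked 3 for Lep, Mest and Sfrp5, 4 for Npr3 and 5 for Nnat. The part of these lists in the result was not tested. The edgeR fold change follows the group means, which a library such as replicate 5 raises: the median of Lep was 97.7 CPM with tea and 1286 CPM with water. Markers of other cells and organs also differed between these groups. The mesothelial list had a median sum of 214.6 CPM with tea and 55.5 with water (3 of 8 genes higher at an unadjusted edgeR p below 0.05), and all 13 kidney genes were higher at that level, with up to 24990 CPM in replicate 4 of high-fat tea. In the macrophage list 4 of 13 genes were lower and 1 higher at that level (median sums of 1413 and 2138 CPM), and in the progenitor and fibroblast list 3 of 12 were lower and 1 higher. With adjustment 0 genes of these 4 lists were called by edgeR, and their part in the result was not tested. Without the 3 libraries highest in pancreas, kidney or seminal vesicle genes 0 of 5 were called, with Lep at −2.56. That fit keeps the high-fat libraries with the most skeletal muscle transcripts. Without the 9, where 2 mice stand against 2 and 13 of all tested genes were called, Lep had −2.22 and Nnat −1.46.

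Among chow-fed mice 0 of 5 genes passed the edgeR test for tea against water, where 0.0235% of all tested genes did. DESeq2 called 0 as well, against 1.17% of all genes it tested. Lep had the widest difference, with 7.13 ± 6.83 CPM in chow tea and 58.9 ± 64.3 in chow water (log2 −3.05, SE 1.09, edgeR adjusted p = 0.27), and at an unadjusted p below 0.05 it and Nnat were the 2 genes lower. The Lep groups overlap through chow water replicate 1, at 5.38 CPM. That library also held the least of the adipocyte list in its group. Nnat had −1.34 (SE 0.54, edgeR adjusted p = 0.312), Npr3 −0.88 (SE 0.58), Mest −0.87 (SE 0.85) and Sfrp5 0.27 (SE 0.60). The Mest difference was 0.01 without chow water replicate 5, so that no direction can be read from it. The lowest Lep value of the series, in chow tea replicate 5, rested on 60 reads, while the same mouse had the highest Sfrp5 and Npr3 of its group.

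Among tea-drinking mice the same 5 genes had higher means on the high-fat diet than on chow, and again 0 of 5 were called by edgeR, where 0.178% of all tested genes were. Lep had a log2 difference of 5.16 (SE 1.20, edgeR adjusted p = 0.0792), Mest 3.13 (SE 0.91, 0.132), Npr3 1.98 (SE 0.60, 0.145), Sfrp5 1.83 (SE 0.61, 0.176) and Nnat 0.75 (SE 0.54, 0.51). At an unadjusted p below 0.05 these were all but Nnat, and DESeq2 with adjustment called the same 4. Without high-fat tea replicate 3, in which Lep stood at 5.06 CPM, inside the chow tea range, Lep was called at 5.48 (edgeR adjusted p = 0.0172) and Mest at 3.43 (0.0451). Over all tested genes 1.79% were called in that fit. Without the 3 libraries highest in pancreas, kidney or seminal vesicle genes Lep alone was called, at 5.37 (edgeR adjusted p = 0.0407), where 1.36% of all tested genes were.

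The interaction of diet and tea asks whether the tea difference depended on the diet. Of the 5 genes 0 were called by edgeR or DESeq2 (0.0657% of all tested genes were by edgeR), and only Sfrp5 was below an unadjusted p of 0.05, at −2.03 (SE 0.85, edgeR adjusted p = 0.262). Sfrp5 differed little with tea on chow (31.3 ± 11 against 25.9 ± 19.3 CPM) and was lower with tea on the high-fat diet (111.1 ± 123 against 376 ± 152 CPM). For Lep the interaction was 0.39 (SE 1.43, edgeR adjusted p = 0.935), and it changed sign when either chow water replicate 5 (−0.53) or high-fat tea replicate 5 (−1.22) was left out. The SE of Lep leaves both a wider and a narrower tea difference on the high-fat diet possible.

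High-fat tea set against chow water, the untreated reference, gave 0 calls among the 5 genes (0.0751% of all tested genes were called). Sfrp5 had 2.10 (SE 0.62, edgeR adjusted p = 0.21), Mest 2.25 (SE 0.88, 0.328), Lep 2.12 (SE 1.05, 0.448), Npr3 1.10 (SE 0.59, 0.471) and Nnat −0.60 (SE 0.53, 0.681). Mest and Sfrp5 were below an unadjusted p of 0.05, and DESeq2 with adjustment called Sfrp5. In the order of group medians of Lep, Mest, Sfrp5 and Npr3, high-fat water stood highest and high-fat tea next, and no neighbouring groups in that order differed at the adjusted threshold. For Nnat as well, no neighbours in its own order passed.

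Pooled over the 4 groups, the deviations of the 5 genes from their group means varied together from mouse to mouse, although not in every group. Log2 CPM values, with a prior count of 2, were taken less their group mean, and the 10 gene pairs were correlated over the 20 mice, with a permutation test of 100000 resamples within groups and adjustment over the 10 pairs. Pearson's r lay between 0.64 and 0.87 with a median of 0.81, and all 10 pairs passed. The test was not run on pairs of other genes, so varying together is not shown to be particular to these 5. Npr3 and Nnat had an r of 0.87 (rho 0.86, permutation adjusted p = 0.000533 and 0.0008), and Mest and Npr3 an r of 0.86 (rho 0.89, permutation adjusted p = 0.00025 and 0.0002). Sfrp5 and Npr3 also had an r of 0.86 (rho 0.82, permutation adjusted p = 0.00025 and 0.00331), and Lep and Mest an r of 0.84 (rho 0.79, permutation adjusted p = 0.00107 and 0.0009). The loosest pair was Lep with Sfrp5, at 0.64 (rho 0.65, permutation adjusted p = 0.0154 and 0.00331).

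The 2 libraries farthest from the median of a pair's first gene, in the order Lep, Mest, Sfrp5, Npr3, Nnat, were then left out. Distance in the second gene was not used. Without them r lay between 0.38 (Lep with Sfrp5) and 0.83 (Npr3 with Nnat). High-fat tea replicate 5 was among the 2 for every pair. For Lep with Sfrp5 the 2 libraries left out were high-fat tea replicates 3 and 5. This pair also ran against the rest in chow tea, where replicate 5 had the lowest Lep and the highest Sfrp5. Without the 3 libraries highest in pancreas, kidney or seminal vesicle genes r lay between 0.65 and 0.91 and all 10 pairs passed. Without the 9, over the 11 mice left, r lay between 0.50 and 0.97 and 0 pairs passed the permutation test. Groups of 5 mice are too small for an r of their own.

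In single libraries this reads as follows. Chow water replicate 5 was the highest of its group for all 5 genes and chow water replicate 1 the lowest for all 5. High-fat tea replicates 5 and 1 took the top 2 places in their group for all 5 genes, and replicate 3 ranked 4 or 5 for each. High-fat water replicate 1 was highest for Lep, Mest, Sfrp5 and Npr3 and ranked 4 for Nnat, so that Nnat did not follow the others in that group. The low chow water replicate 1 is the library with pancreas transcripts and the least of the adipocyte list in its group, at 16240 CPM against 55730 in replicate 5. The part of that difference in the relation was not tested.

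**Figure D3:**
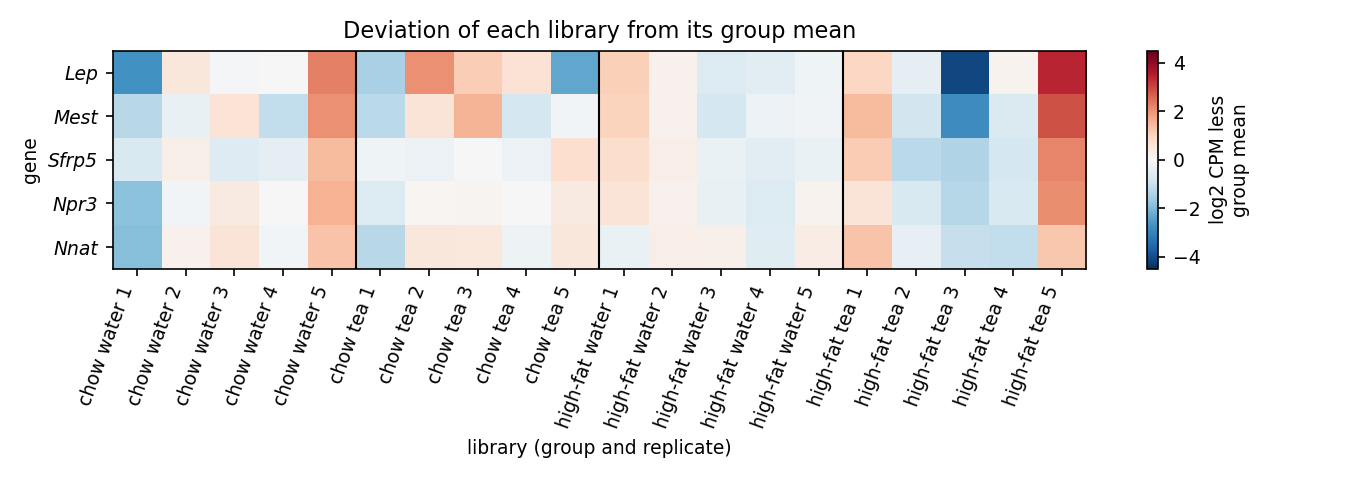
Log2 CPM of each gene (vertical axis) less its group mean in each of the 20 libraries (horizontal axis, groups divided by black lines), red above and blue below the mean. Chow water replicate 5 and high-fat tea replicates 1 and 5 are red for all 5 genes, and high-fat tea replicate 3 and chow water replicate 1 are blue for all 5.

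The genes most like each of the 5 over the 20 libraries were taken by r of the same deviations among 12125 genes with a mean log2 CPM of at least 1, as a description. Nearest to Lep were Trp53inp2, an autophagy gene (0.872), Thsd7a, a thrombospondin-repeat protein (0.857), and Apln, the peptide apelin (0.857), and Mest ranked 9 among all of them. Nearest to Mest were Slc5a7, the choline transporter (0.959), Emp1 (0.91) and Prelp, a matrix proteoglycan (0.905). Nearest to Sfrp5 were the integrin gene Itgb1 (0.914), the phosphodiesterase gene Pde7a (0.913) and Gabrr2 (0.901). Nearest to Npr3 were the membrane skeleton gene Sptbn1 (0.976), the cytolinker gene Dst (0.959) and Fads3 (0.958). Nearest to Nnat were the calcium pump gene Atp2b4 (0.928), Sncg, which encodes a synuclein abundant in fat cells (0.917), and Ccdc80 (0.901). The other members ranked from 9 to 249 for Lep, 10 to 75 for Mest and 12 to 441 for Sfrp5. They ranked from 67 to 284 for Npr3 and 15 to 699 for Nnat, so many genes outside the 5 were closer. All values of a library share its depth and its dissection, here and in the pairs above.

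The wider groups around these genes were read in high-fat against chow feeding of water-drinking mice, where 15.2% of all tested genes were called in either direction. Of the 12 mature adipocyte genes 0 were called by edgeR and 1 by DESeq2, with 1 below an unadjusted p of 0.05 and a median log2 fold change of 0.11. Adipoq stood at 2770 ± 1250 CPM in chow water and 2990 ± 621 in high-fat water, and Plin1 at 1020 ± 371 and 1310 ± 271. Of the 7 genes of caveolae, the membrane pits that are dense on adipocytes, 4 rose and 0 fell (median 1.04). Cavin3, a coat protein, rose from 21.2 ± 7.86 to 105 ± 41.2 CPM (log2 2.31, edgeR adjusted p = 0.000535). Cav1, the caveolin scaffold, rose from 747 ± 307 to 2100 ± 480 CPM (log2 1.49, adjusted p = 0.01), and Cav2 rose by 1.48. Without the 9 libraries with other-organ transcripts, 3 caveolae genes were higher and 1 lower.

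On the side of leptin action, the leptin receptor gene Lepr, named here outside the rule as the partner of Lep, stood at 13.5 ± 7.66 CPM in chow water and 5.50 ± 3.05 in high-fat water (log2 −1.29, SE 0.47, edgeR adjusted p = 0.0702). Of 13 genes of the receptor pathway 2 rose and 2 fell. Leprot, which shares its first exons with Lepr, rose by 0.44, while Stat3, the transcription factor downstream of the receptor, had −0.53 and the phosphatase gene Ptpn2 −0.43, both of them calls that 4 of 10 single libraries ended when left out. Of 11 regulators of the Lep gene 1 rose and 1 fell, namely Hif1a at 0.33, a call that ended without high-fat water replicate 1, and Sp1 at −0.39. Cebpa and Pparg, which encode the adipogenic factors that act on the Lep promoter, were not called (352 ± 115 and 421 ± 114 CPM for Cebpa, 280 ± 100 and 181 ± 37.7 CPM for Pparg).

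Around Sfrp5, 1 of 14 tested Wnt ligand genes fell and 0 rose, 2 of 15 receptor genes rose, 2 of 7 other secreted antagonists rose, and 1 of 14 intracellular targets and feedback genes rose. Wnt5a, a ligand that Sfrp5 binds and named here outside the rule, stood at 24.9 ± 8.56 and 31.2 ± 6.71 CPM (log2 0.33, edgeR adjusted p = 0.44). The Wnt feedback inhibitor gene Nkd1 rose from 12 ± 3.57 to 35 ± 11.2 CPM (log2 1.54, adjusted p = 0.00157), which held when each library was left out. The antagonist genes Wif1 and Sfrp4 rose by 2.01 and 1.33, and the receptor genes Fzd4 and Fzd2 by 0.91 and 0.77, while the ligand gene Wnt9b fell by 1.40. Without the 9 libraries with other-organ transcripts, which leaves 3 chow water and 2 high-fat water mice, none of these 5 was called, at 1.79 for Wif1, 0.94 for Sfrp4, 0.83 for Fzd4, 1.12 for Fzd2 and −1.66 for Wnt9b. Single libraries ended them too, from 2 of 10 for Wif1 to 9 of 10 for Sfrp4.

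Around Npr3, 0 of the 8 tested genes of the natriuretic peptide system were called by edgeR and 1 by DESeq2, with 1 below an unadjusted p of 0.05 and a median of −0.77. The signalling receptor gene Npr1, named here outside the rule, stood at 72.4 ± 19.9 CPM in chow water and 91.8 ± 32.7 in high-fat water (log2 0.34, edgeR adjusted p = 0.405). Npr2 stood at 75.5 ± 23.9 and 88.3 ± 9.82 CPM. The clearance receptor was therefore the one receptor of the 3 that passed the test, which does not show that the receptors differ from each other, since that difference was not tested.

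Around the imprinted Mest and Nnat, 5 of 19 tested imprinted genes rose and 1 fell (median 0.61), a list in which 1 rose and 2 fell without the 9 libraries. Peg10, a paternally expressed gene derived from a retrotransposon, rose from 8.89 ± 6.41 to 116 ± 124 CPM (log2 3.70, edgeR adjusted p = 0.00907). Ndn rose by 1.50, and without the 9 libraries it had 0.78 and was not called. Meg3, an imprinted long RNA, rose by 2.18, and without high-fat water replicate 4, which held 13460 CPM of adrenal cortex genes, it had 1.04 (adjusted p = 0.104); it was also lost without chow water replicate 2 (adjusted p = 0.0518). Of 6 tested neighbours of Mest and Nnat 2 rose. Copg2, a coatomer subunit gene that overlaps Mest, rose from 52 ± 9.89 to 108 ± 30.3 CPM (log2 1.06, adjusted p = 0.00246). Whether any reads of Mest entered its count was not tested. Klf14, an imprinted transcription factor gene near Mest, rose by 2.98 (adjusted p = 0.0198; 0.0505 without chow water replicate 2 and 0.0531 without high-fat water replicate 1). Blcap, the gene around Nnat, stood at 88.5 ± 26.2 and 105 ± 16.5 CPM and was not called.

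Among 14 measured genes described elsewhere with fat expansion, 5 rose and 1 fell, and this list was assembled with results of these data known. Fgf13, an intracellular fibroblast growth factor homologue, rose from 3.70 ± 2.19 to 52.8 ± 16.3 CPM (log2 3.83, edgeR adjusted p = 0.000466). Lbp, the lipopolysaccharide binding protein gene, rose from 37.2 ± 12.8 to 227 ± 99.7 CPM (log2 2.60, adjusted p = 0.0012). Cfd, which encodes the protease adipsin, fell by 2.35 on the log2 scale. These 3 calls held when each library was left out.

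**Figure D4:**
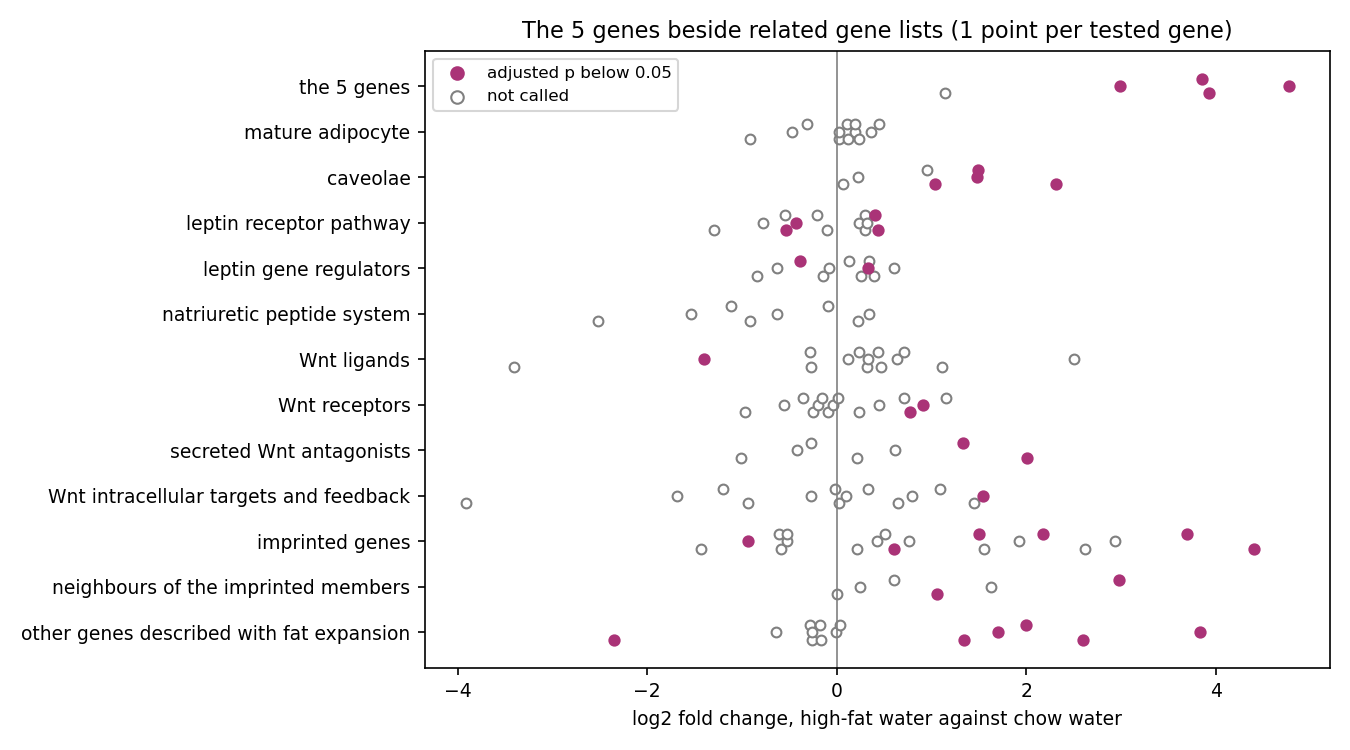
Log2 fold change of high-fat water against chow water (horizontal axis), 1 point per tested gene, for the 5 genes and the 12 gene lists (vertical axis). Filled points have an edgeR adjusted p below 0.05. The 5 genes lie between 1.14 and 4.77, while the 12 mature adipocyte genes lie around a median of 0.11.

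For tea against water on the high-fat diet, several of these related genes passed where the 5 did not. Over all tested genes 2.06% were called higher and 2.3% lower in this comparison. Cavin3 fell by 1.90 (28.1 ± 13.7 against 105 ± 41.2 CPM, edgeR adjusted p = 0.00713) and Cav1 by 1.33 (833 ± 433 against 2100 ± 480 CPM, adjusted p = 0.0402), 2 of 7 caveolae genes. Nkd1 fell by 1.72 (10.6 ± 3.87 against 35 ± 11.2 CPM, adjusted p = 0.00413). Of the 14 genes described with fat expansion 3 fell and 1 rose, among them Fgf13, which fell by 2.39, Lbp, which fell by 2.04, and Bmp3, a ligand gene of the bone morphogenetic protein family, which fell by 1.94. Single calls were also made for Gnas, an imprinted gene of G protein signalling that fell by 1.20, for Copg2, which fell by 0.74, and for Sp1, which rose by 0.34.

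The calls of Cavin3 and Nkd1 held when each library was left out in turn. Those of Lbp and Fgf13 were lost without high-fat water replicate 1 (Fgf13 also without high-fat tea replicate 3), and those of Cav1, Bmp3, Gnas, Copg2 and Sp1 were lost in 7 to 9 of the 10 omissions. In the fit of the 2 high-fat groups alone none of these genes was called, with Cavin3 at −1.88 (edgeR adjusted p = 0.0681) and Nkd1 at −1.71 (0.0616), and 21 genes of all tested were called there. Without the 9 libraries with other-organ transcripts, which leaves 2 mice against 2, none was called either, and the log2 differences were −2.12 for Cavin3, −1.40 for Nkd1, −2.22 for Lbp and −2.29 for Fgf13. The mature adipocyte list again had 0 of 12 genes called by edgeR or DESeq2, and 0 below an unadjusted p of 0.05 (median −0.20). The edgeR test made 0 calls in the leptin receptor pathway, the natriuretic peptide system, the Wnt ligands, the Wnt receptors and the secreted antagonists, where 4, 1, 1, 1 and 3 genes were below an unadjusted p of 0.05 and DESeq2 called 2, 0, 1, 0 and 1. Both comparisons share the high-fat water mice, so their opposite directions are not independent of each other. In the remaining comparisons 0 genes of the 12 lists were called by edgeR. Of their 140 tested entries, 12 were below an unadjusted p of 0.05 for tea in chow-fed mice, 24 for diet in tea-drinking mice, 21 for the interaction and 14 for high-fat tea against chow water, and DESeq2 called 0, 5, 4 and 0.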

How the data were processed

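RNA of white adipose tissue from 20 mice was sequenced with a stranded poly-A kit, per the labels' protocols. The authors deposited 1 table of whole-number read counts per gene and library. The submitters' processing notes name HISAT2 2.2.1 beside fastp 0.23.2 and featureCounts 2.0.6, with mm10 as the genome, while per the file headers the counting ran on GENCODE vM32 of GRCm39, without strand and with both reads of a pair counted. Exonic lengths were those of the deposited tables.

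Genes with low counts were removed with filterByExpr of edgeR 4.0.16 in R 4.3.3 (minimum count 10 in 5 libraries), leaving 21306 of 56805. The edgeR quasi-likelihood F test was fitted to all 4 groups with TMM scaling, with Benjamini-Hochberg adjustment over all genes tested. The SE of a log2 fold change was its size divided by the square root of F. The common biological coefficient of variation was 0.593, and no within-group pair of libraries agreed within sampling noise. On simulated counts for the diet comparison under water (20906 genes), 84% of genes changed 4-fold and 42% of those changed 2-fold were recovered. The changed genes were drawn at random, so these shares do not give the recovery of the 5 genes.

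The members and gene lists were chosen with earlier results of these data known. Named genes are the 5 members, up to 3 called genes with the lowest p per list and comparison, and the 3 genes most correlated with each member. Alternatives covered scaling, filtering, the replicate block, an adipocyte covariate, libraries left out, the groups compared alone, limma 3.58.1 (voom) and DESeq2 1.42.0. Amino acid sequences were not used here.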

Additional observations from a re-analysis of the deposited data

Results flagged for a closer look

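Of the 20 combinations of gene and group, 5 had a highest library separated from the other 4 by a gap too wide for its range (Dixon's test at 95%), where chance marks about 1 in 20 groups of normally distributed values. CPM values are skewed to the right, and on log2 CPM, an alternative chosen after seeing the data, 1 of the 20 stood apart, Sfrp5 in chow tea. Chow water replicate 5 stood apart for Lep, at 170.3 CPM against at most 50.1 in the other 4 mice, and for Sfrp5, at 59.3 CPM against at most 26. High-fat tea replicate 5 stood apart for Lep, at 942.7 CPM against at most 165.3, and for Npr3, at 762.6 CPM against at most 267. Chow tea replicate 5 stood apart for Sfrp5, at 50.72 CPM against at most 29.8, while its Lep was the lowest of its group.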

How the results depend on the processing

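Of 615 alternative values of the 5 genes over the 6 comparisons, 583 kept their direction and their side of the threshold, 25 passed it where the reported value did not, 1 failed it and 6 changed sign. In water-drinking mice 4 genes were called as reported in all 10 omissions of 1 library and 3 to 5 under the other alternatives. For tea against water on the high-fat diet, where 0 were called, voom called 2 (Sfrp5 and Npr3), the adipocyte covariate 2 (Npr3 and Nnat), DESeq2 3 (Sfrp5, Npr3 and Nnat) and omissions of 1 library 0 to 5. For diet in tea-drinking mice, where 0 were called, the adipocyte covariate called 2, the fit without 3 libraries 1, DESeq2 4 and omissions 0 to 2. For high-fat tea against chow water DESeq2 called 1. Of the 10 gene pairs 0 passed without the 9 libraries with other-organ transcripts, over 11 mice. The sign changes, all in values that were not called, were Mest for tea in chow-fed mice (0.01 without chow water replicate 5, −1.43 to 0.01 over the omissions), Lep in the interaction (−0.53 without chow water replicate 5, −1.22 without high-fat tea replicate 5, −1.22 to 1.06 over the omissions, −0.85 with voom) and Nnat in the interaction (0.07 without the 9 libraries). The cause was not tested.

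Replicate numbers do not pair the mice: over 30 same-numbered pairs across groups, deviations correlated between −0.27 and 0.47, 9 of them over 0.1, and 4 of 20 libraries correlated best with their own number. With the replicate block 2 genes (Sfrp5 and Npr3) were called for tea in high-fat-fed mice, and Lep in the interaction was −1.17.

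Of 589 alternative values of the genes named from lists, 447 kept their call and 142 lost it. Over all genes, 3232 were called for diet in water-drinking mice, 2164 with no filter on low counts and 2052 without the 9 libraries. For tea in high-fat-fed mice 928 were called, 408 with no filter, 21 from the 2 groups alone, 13 without the 9 libraries, 1602 without the 3, 1780 with the adipocyte covariate and 2216 by DESeq2. Exact permutation p-values adjusted over the 5 genes were not run, since the genes were chosen with results known. The lowest count of the 5 genes was 60 reads, with both reads of a pair counted. The spread between libraries contains mouse, dissection and library preparation, and it was not split into these parts.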
